A study of Mus musculus with 11 samples.

Results

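Zscan4b, Zscan4c, Zscan4d, Zscan4e, Zscan4f, Tcstv1, Tcstv3, Zfp352, Spz1 and Arg2 are genes known for high transcription in the two-cell-like state of mouse embryonic stem cells (ESCs). They were taken by name, with earlier results of these data known, and make up 10 of the 39179 gene identifiers measured by RNA-seq. Each was matched to 1 Ensembl identifier through the mouse GENCODE annotation of GRCm38. The study compared Mettl3 knockout (KO) with wild-type (WT) cells of strain C57BL/6, as ESCs and as embryoid bodies (EBs), the floating aggregates in which ESCs differentiate. Mettl3 is the catalytic subunit of the enzyme that writes N6-methyladenosine (m6A) on messenger RNA. KO ESCs and WT ESCs had 3 libraries each, with letters A, B and C, and KO EBs and WT EBs had 2 each, with letters A and B. ESCs of both genotypes were kept without serum in N2B27 medium with LIF, CHIR99021 and PD0325901, the combination called 2i. EBs of both genotypes were grown in medium with serum for between 8 and 21 days, with no day given per library. The labels mark ESC replicate C as the sample also used for SILAC, a protein assay with isotope-labelled amino acids. They do not name the KO allele or say how many KO clones were used or whether the replicates were separate cultures, so p-values measure the spread between these libraries, which may be technical.

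A small share of cells in an ESC culture passes for a short time through a state that resembles the two-cell embryo, the stage at which the mouse genome is first transcribed at full scale. In that state the transcription factor Dux switches on clusters of repeated genes, among them the Zscan4 genes. The medium with CHIR99021 and PD0325901 favours the ground state, in which few cells are in this state at any time. Full-length Zscan4 proteins carry a SCAN domain and zinc fingers and are known for telomere lengthening and genome stability in mouse ESCs. Tcstv1 and Tcstv3 are small proteins of a family named for variable expression at the two-cell stage, and Zfp352 is a zinc finger protein of the early embryo. Spz1 is a basic helix-loop-helix leucine zipper protein best known from testis, and Arg2 is the mitochondrial arginase, which splits arginine into ornithine and urea. In bulk RNA, fewer cells in the state and less RNA per such cell cannot be told apart.

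The 5 Zscan4 genes lie on chromosome 7 of GRCm38, between 10900740 and 11402318, as separate copies. Zscan4b (chr7:10900740-10905050), Zscan4d (chr7:11161374-11166159) and Zscan4e (chr7:11306378-11310682) are on the minus strand. Zscan4c (chr7:11005745-11010547) and Zscan4f (chr7:11397915-11402318) are on the plus strand. Tcstv1 (chr13:119893388-119894785, minus strand) and Tcstv3 (chr13:120316878-120318178, plus strand) form a looser pair on chromosome 13. Spz1 (chr13:92574636-92576172, minus strand), Zfp352 (chr4:90218820-90225702, plus strand) and Arg2 (chr12:79130777-79156301, plus strand) are single genes. All 10 are annotated as protein coding, and values cover their exons.

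The upstream sequences of the 3 Zscan4 genes with the most reads are shown because they make the sameness of the copies visible. Each line gives the 250 bases before the RefSeq start (GRCm38.p6), 5′ to 3′ on the gene's own strand. The capitals mark a TATA box (TATAAAA) and the letters TGATTCAA, which begin like the motif known for mouse Dux and were chosen after the sequences had been seen.
Zscan4c (chr7:11005495-11005744, plus strand): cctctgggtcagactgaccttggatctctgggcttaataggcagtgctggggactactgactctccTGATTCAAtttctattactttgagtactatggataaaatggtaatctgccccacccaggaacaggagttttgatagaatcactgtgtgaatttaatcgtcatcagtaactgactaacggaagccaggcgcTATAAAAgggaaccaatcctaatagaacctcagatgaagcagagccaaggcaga
Zscan4d (chr7:11166149-11166398, minus strand): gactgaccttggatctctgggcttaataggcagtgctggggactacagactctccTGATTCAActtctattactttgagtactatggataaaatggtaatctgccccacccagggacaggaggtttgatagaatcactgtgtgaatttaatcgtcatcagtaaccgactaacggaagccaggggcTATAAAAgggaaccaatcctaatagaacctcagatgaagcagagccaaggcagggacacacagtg
Zscan4f (chr7:11397665-11397914, plus strand): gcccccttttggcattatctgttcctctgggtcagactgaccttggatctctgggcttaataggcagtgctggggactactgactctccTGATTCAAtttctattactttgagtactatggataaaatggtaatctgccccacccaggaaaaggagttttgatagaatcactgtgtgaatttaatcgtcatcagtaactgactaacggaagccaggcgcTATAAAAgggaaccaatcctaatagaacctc

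Windows were present for 6 of the 10 genes. The Zscan4c and Zscan4d windows were 88.8% identical, Zscan4c and Zscan4f 81.2%, and Zscan4b and Zscan4f 94.8%, counted by edits over windows whose annotated starts are not at the same point. Zfp352 reached 44.4% to 46.8% against the Zscan4 windows. TATAAAA, searched on both strands, stood 54 bases before the start in Zscan4c, 65 in Zscan4d and 31 in both Zscan4b and Zscan4f, and was found in 4.98% of the 32851 mouse windows of the same length. TGATTCAA began 184, 195 and 161 bases before the start in Zscan4c, Zscan4d and Zscan4f, and was found in 0.539% of windows. The full Dux motif was in 10 windows (0.0304%), none of them of these genes. The TATAAAA and TGATTCAA matches did not overlap in these windows, and a match describes letters only.

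The copies also share most of their transcripts, which limits what a read can be assigned to. Among all stretches of 50 bases in the annotated transcripts, 9.88% in Zscan4b to 14.5% in Zscan4c occurred in no other annotated gene, with Zscan4e and Zscan4f in between. Zscan4d was the most distinct copy at 50.4%. The shares were 85.0% for Tcstv1, 68.6% for Tcstv3, 92.9% for Zfp352, 100% for Spz1 and 78.8% for Arg2. With stretches of 100 bases, Zscan4b, Zscan4c, Zscan4e and Zscan4f reached 18.5% to 27.2% and Zscan4d 70.4%. The read length is not given in the sources used here. Reads that fit several copies equally are lost from such tables, so the level of each Zscan4 copy and the split between copies are uncertain, and the summed reads of the 5 are given too. Of the 10 genes, only Arg2 shares exon bases with genes on the other strand, Vti1b and Gm48780. The kit does not keep the strand, so reads there cannot be told apart.

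**Figure D1:**
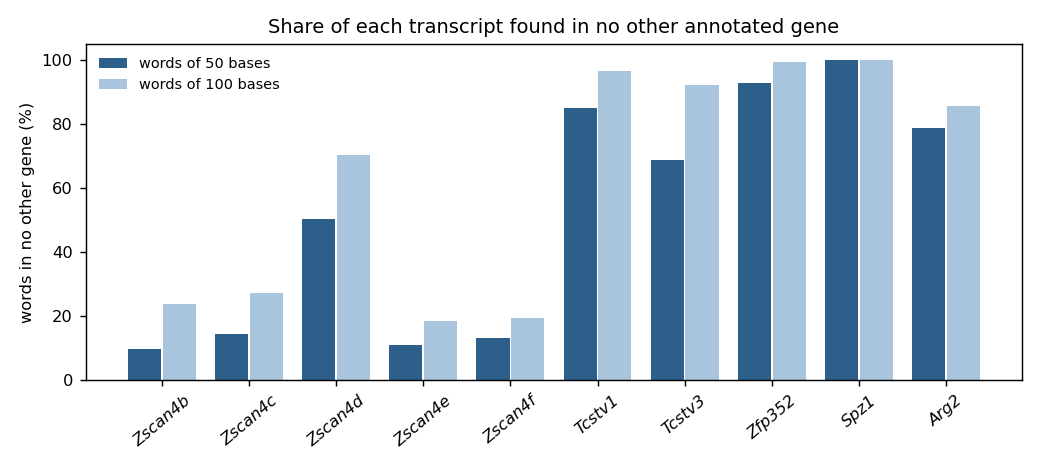
Bars give, for each of the 10 genes, the share of its transcript stretches (%) found in no other annotated gene, for stretches of 50 bases (dark) and 100 bases (light). Zscan4b, Zscan4c, Zscan4e and Zscan4f stand at 9.88% to 14.5% for 50 bases, below Zscan4d (50.4%) and the other 5 genes (68.6% to 100%).

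Libraries A and B held 8523027 to 15426894 reads in genes, and the C libraries 3075007 in KO ESCs and 3026837 in WT ESCs. Normalized counts are reads divided by 1 size factor per library, and 1 read stood for 0.544 to 0.908 normalized counts in A and B, against 2.78 in KO ESC C and 3.29 in WT ESC C. Alignments that were not unique made up 28.7% to 30.6% of records in C and 36.9% to 46.1% in A and B. Mettl3 had 138, 133 and 131 normalized counts in KO ESCs A, B and C, against 422, 392 and 425 in WT ESCs. It had 154 and 147 in KO EBs, against 399 and 368 in WT EBs, lower in KO in every library. The C libraries stand apart from A and B of both genotypes, and the tests of the members are therefore given with and without them. Some results of other lists are given over all libraries only.

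In KO ESC libraries A and B, 7 of the 10 two-cell-like genes had no read. The 5 Zscan4 genes together had 3 reads there, against 295 in WT ESCs A and B, while Arg2 had 24, against 48. Libraries C went the other way, with 31 Zscan4 reads in KO ESCs, against 10 in WT ESCs. In EBs, KO and WT held Zscan4 at like levels, with 157 reads in KO EBs, against 133 in WT EBs, while Tcstv1 and Zfp352 had fewer reads in KO EBs. Over all 10 libraries limma, which could test 4 of the 10 genes, called none of the 4 in any comparison, and DESeq2 called 1, Zscan4c, in KO against WT ESCs.

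**Figure D2:**
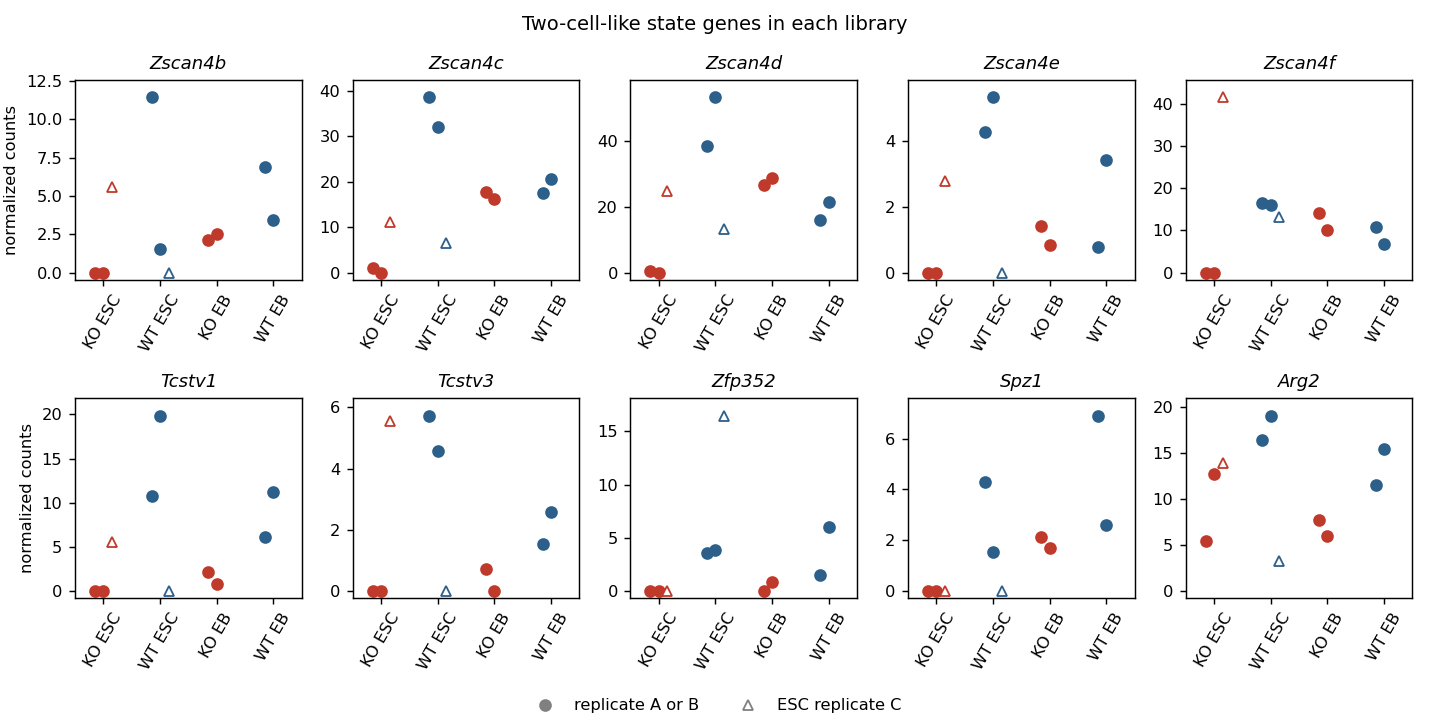
Each panel plots 1 gene, with normalized counts on the y axis and KO ESC, WT ESC, KO EB and WT EB libraries from left to right. Filled circles are replicates A and B and open triangles ESC replicate C. Circles of KO ESCs lie at 0 for 7 of the 10 genes, whereas the KO ESC triangle lies above the WT ESC triangle for 8 of 10, of which 4 rest on 1 or 2 reads against 0.

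Zscan4d, the copy whose reads are best told apart, had 1, 0 and 9 reads in KO ESCs A, B and C, against 54, 70 and 4 in WT ESCs. In normalized counts these were 0.544, 0 and 25.0 in KO ESCs, against 38.6, 53.4 and 13.2 in WT ESCs. KO libraries A and B lay below all WT libraries, while KO C lay above WT C, so the groups overlapped. Over A and B, Zscan4d was 134.6-fold lower in KO ESCs, with an exact binomial 95% interval of 23.7 to 5358. Such intervals cover counting error only, and reads without molecular identifiers are not independent molecules. In C alone Zscan4d was 1.90-fold higher in KO ESCs, with an interval of 0.529 to 8.43 that includes no difference.

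Zscan4c had 2, 0 and 4 reads in KO ESCs A, B and C, against 54, 42 and 2 in WT ESCs. Here KO A and B lay below every WT library, and KO C lay between WT C and WT B. Over A and B, Zscan4c was 52.1-fold lower in KO ESCs (interval 14.0 to 436). Zscan4f had 0, 0 and 15 reads in KO ESCs, against 23, 21 and 4 in WT ESCs. KO C was therefore the highest of the 6 libraries for Zscan4f, at 41.7 normalized counts, and KO A and B the lowest. Where a group had no read, folds are lower bounds that set it at 3 reads over its libraries. Zscan4f was at least 15.9-fold lower in KO ESCs over A and B, and in C 3.16-fold higher (1.01 to 13.1). Zscan4b had 0, 0 and 2 reads in KO ESCs, against 16, 2 and 0 in WT ESCs, and Zscan4e had 0, 0 and 1 in KO ESCs, against 6, 7 and 0 in WT ESCs. Over A and B these were at least 6.51-fold and 4.70-fold lower in KO ESCs, and in C both were below the floor.

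Summed over the 5 copies, Zscan4 stood at 1.63, 0 and 86.1 normalized counts in KO ESCs A, B and C, against 109, 108 and 32.9 in WT ESCs. The group means were 29.2 ± 49.2 in KO ESCs and 83.6 ± 43.9 in WT ESCs (SD, n = 3 each), a difference close to the spread of either group. Zscan4 was 106.7-fold lower in KO ESCs over A and B (36.2 to 520), 9.83-fold lower over all 3 (6.88 to 14.5), and 2.61-fold higher in C alone (1.25 to 5.98). Pooled reads give the shallow C libraries little weight, and the ratio of the group means of normalized counts, which weights the 3 libraries equally, was 2.86-fold lower in KO ESCs. Within genotypes, C against A and B also ran opposite ways. The sum was 84.3-fold higher in C in KO ESCs (26.3 to 431), and in WT ESCs C stood at 0.302 of the level of A and B (0.144 to 0.564).

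Tcstv1 had 0, 0 and 2 reads in KO ESCs A, B and C, against 15, 26 and 0 in WT ESCs. Tcstv3 had 0, 0 and 2 reads in KO ESCs, against 8, 6 and 0 in WT ESCs. Both genes thus followed the Zscan4 copies in A and B, and in C neither had more than 3 reads. Together they were at least 19.9-fold lower in KO ESCs over A and B, with no read in KO, against 55 in WT. Zfp352 had no read in KO ESCs A, B or C, against 5, 5 and 5 in WT ESCs. It was the only one of the 10 whose 3 KO ESC libraries all lay below the 3 WT ESC libraries, and was at least 5.48-fold lower over all 3. The share of all genes with that pattern was not counted. An exact permutation test of the 3 and 3 libraries gave p = 0.1 for Zfp352, the smallest possible, and 0.571 after adjustment over the 10 genes. Spz1 had no read in KO ESCs, against 6, 2 and 0 in WT ESCs, at least 2.89-fold lower over A and B.

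Arg2 ran in the same directions in A and B and in C, with a smaller difference. It had 10, 14 and 5 reads in KO ESCs A, B and C, against 23, 25 and 1 in WT ESCs, or 5.44, 12.7 and 13.9 normalized counts, against 16.5, 19.1 and 3.29. The groups overlapped through C. Over A and B it was 2.17-fold lower in KO ESCs (1.30 to 3.70), and in C the 5 and 1 reads left a fold of 4.22 with an interval of 0.472 to 199. Arg2 was the only member with more than 2 reads in any single KO ESC library A or B.

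Across all measured genes with 10 or more reads in total, KO ESCs A and B lay below WT ESCs A and B for 33.9% of 22368, and for 10 of the 10 members. No read in KO ESCs A and B was found for 2.74% of those genes and for 7 of the 10 members. That share was not matched for level, and most members have few reads in any library. The members were chosen with earlier results of these data known, so such counts describe them and test nothing. KO ESC C lay above WT ESC C for 37.5% of genes and for 8 of the 10, but 4 of those 8 (Zscan4b, Zscan4e, Tcstv1 and Tcstv3) had only 1 or 2 reads in KO C against 0, too few to compare.

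The test across all genes used limma on log2(normalized count + 1), with 15781 genes whose mean was 10 or more. Of the 10 members, 4 passed that filter (Zscan4c, Zscan4d, Zscan4f and Arg2) and 6 did not. For KO against WT ESCs the log2 difference was -2.87 for Zscan4c (SE 1.02, adjusted p = 0.195), -3.19 for Zscan4d (SE 1.20, adjusted p = 0.222), -2.21 for Zscan4f (SE 1.37, adjusted p = 0.505) and -0.06 for Arg2 (SE 0.70, adjusted p = 0.999). None of the 4 was called, against 2.38% of all genes tested. An unadjusted p under 0.05 was found for 2 of them, Zscan4c and Zscan4d, and for 2710 of the 15781 genes. edgeR called none of the 4 and DESeq2 called 1 lower, Zscan4c (adjusted p = 0.0317), against 5.83% of all genes. Differences on this scale understate changes of low genes.

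Without both C libraries the estimates were larger and their errors smaller. The limma log2 difference was -4.65 for Zscan4c (SE 0.38, adjusted p = 2.17e-05), -5.22 for Zscan4d (SE 0.33, adjusted p = 6.25e-06) and -4.11 for Zscan4f (SE 0.36, adjusted p = 3.46e-05), and these 3 fell. The filter used all 10 libraries, and over the 8 without C the mean of Zscan4f was 9.30, below the minimum of 10, but Zscan4f was called without the filter too (adjusted p = 1.22e-05). Arg2 did not pass, at -0.99 (adjusted p = 0.0604). In that fit 27.8% of all genes tested were called lower, so a call alone sets no gene apart. Leaving out KO ESC replicate C only gave the same count of 3, against 6.61% of all genes. An edgeR fit on whole reads without C, added after the data had been seen, tested all 10 and called all 10 lower in KO ESCs, against 21.5% of the 22252 genes tested. The limma fit without C and without the filter, also added then, called 9 lower, all but Arg2, against 15.2%. Arg2 was the nearest to the threshold of the edgeR fit (adjusted p = 0.0457).

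**Figure D3:**
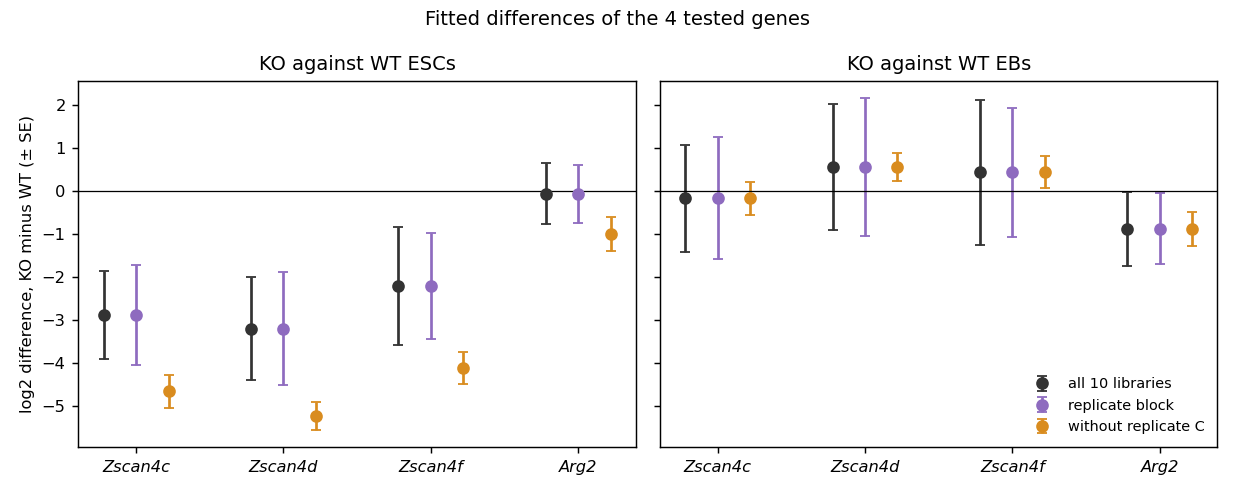
Points give the limma log2 difference, KO minus WT, and bars its SE, for the 4 tested genes in ESCs (left) and EBs (right), over all 10 libraries, with the replicate block, and without the replicate C libraries. In ESCs the differences of Zscan4c, Zscan4d and Zscan4f lie at -2.21 to -3.19 over all libraries and at -4.11 to -5.22 without C, and in EBs the bars over all libraries of those 3 cross 0.

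In EBs the Zscan4 copies were present in both genotypes and differed little between them. Zscan4d had 38 and 34 reads in KO EBs A and B, against 21 and 25 in WT EBs. Zscan4c had 25 and 19 in KO EBs, against 23 and 24 in WT EBs, and Zscan4f had 20 and 12 in KO EBs, against 14 and 8 in WT EBs. KO lay above WT in both libraries only for Zscan4d, and the ranges of Zscan4c and Zscan4f overlapped. The sum of the 5 was 60.4 ± 2.52 normalized counts in KO EBs and 54.0 ± 2.73 in WT EBs (SD, n = 2 each). The ratio of their pooled reads was 1.12, with an interval of 0.885 to 1.43 that includes no difference. Zscan4d alone was 1.49-fold higher in KO EBs (1.01 to 2.20), but the limma log2 difference of 0.56 had adjusted p = 1 with all libraries, and the edgeR fit without C gave an adjusted p of 0.108. Zscan4b had 3 and 3 reads in KO EBs, against 9 and 4 in WT EBs, and Zscan4e 2 and 1 in KO EBs, against 1 and 4 in WT EBs.

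Tcstv1, Tcstv3 and Zfp352 were lower in KO EBs than in WT EBs in both libraries. Tcstv1 had 3 and 1 reads in KO EBs, against 8 and 13 in WT EBs, and was 5.52-fold lower (1.86 to 22.1). Tcstv3 had 1 and 0 reads in KO EBs, against 2 and 3 in WT EBs, so the pair together was 5.47-fold lower (2.07 to 18.2). Zfp352 had 0 and 1 reads in KO EBs, against 2 and 7 in WT EBs, 9.46-fold lower with a wide interval of 1.31 to 415. These 3 genes did not pass the filter of the main fit. Of the members, the edgeR fit without C called only Tcstv1 in EBs (log2 difference -2.34, adjusted p = 0.0311), against 19.7% of all genes called lower. The limma fit without C and without the filter called Tcstv1 (-1.96, adjusted p = 0.011) and Zfp352 (-1.63, adjusted p = 0.0482), against 19.1% called lower.

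Spz1 had 3 and 2 reads in KO EBs, against 9 and 3 in WT EBs, a ratio whose interval included no difference (2.52-fold lower, 0.828 to 9.14). Arg2 had 11 and 7 reads in KO EBs, against 15 and 18 in WT EBs, 1.93-fold lower in pooled reads (1.05 to 3.64). Both KO libraries of Arg2 lay below both WT libraries, but its limma log2 difference of -0.88 had adjusted p = 0.847. Over all 10 libraries limma called 0 of the 4 tested members in EBs, against 1.84% of all genes. None of the 4 had an unadjusted p under 0.05, against 2189 of 15781 genes, and edgeR and DESeq2 called 0 too. Without C limma called 0 of the 4, against 51.9% of all genes. KO EBs lay below WT EBs in both libraries for 6 of the 10 members, against 36.1% of all genes with 10 or more reads, and above them for 1.

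**Figure D4:**
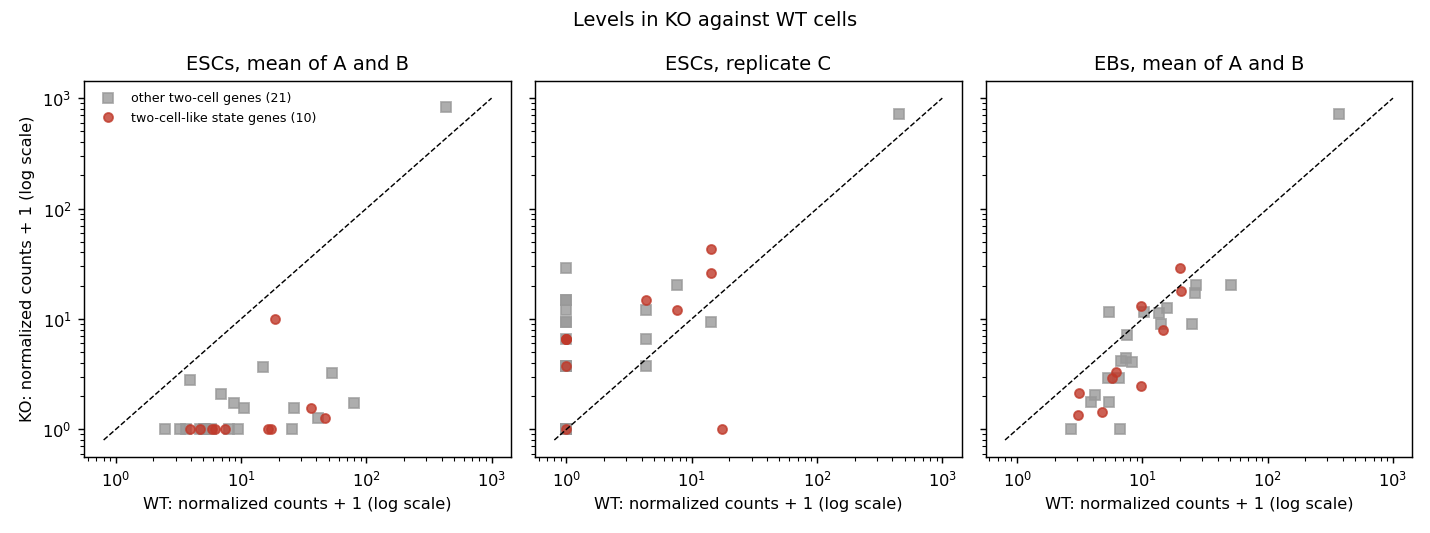
Each point is 1 gene, with its level in KO on the y axis and in WT on the x axis (normalized counts + 1, log scales), for ESCs as the mean of A and B (left), ESC replicate C (middle) and EBs (right). Red circles are the 10 two-cell-like state genes, grey squares 21 other genes of the two-cell program, and the dashed line marks equal levels. All 10 circles lie below the line in ESCs A and B, 8 of 10 lie above it in C (4 of them with only 1 or 2 reads against 0), and in EBs they lie on both sides.

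The levels in EBs against ESCs differed by genotype in A and B. In WT cells the Zscan4 sum was 52.1 and 56.0 normalized counts in WT EBs, against 109 and 108 in WT ESCs A and B, a ratio of 0.495 (0.400 to 0.609). WT ESC C, at 32.9, lay below both WT EBs. In KO cells the sum was 62.2 and 58.6 in KO EBs, against 1.63 and 0 in KO ESCs A and B, 59.3-fold higher (19.9 to 291). KO ESC C, at 86.1, lay above both KO EBs. Zscan4d was 81.6-fold higher in KO EBs than in KO ESCs A and B (14.2 to 3266), Zscan4c 24.9-fold higher (6.50 to 212) and Zscan4f at least 12.1-fold higher.

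For WT EBs against WT ESCs limma called none of the 4 tested members over all libraries, against 2.48% of all genes, and for KO EBs against KO ESCs none, against 0.805%. No member had an unadjusted limma p under 0.05 in either, against 2287 and 2136 of 15781 genes, and edgeR and DESeq2 called none. Without C, Zscan4d fell in WT EBs (log2 difference -1.24, adjusted p = 0.0138), against 23.7% of all genes called lower. It was also the one member called in the limma fit without C and filter (12% called lower), and edgeR without C called Zscan4c and Zscan4d (18.7% called lower). Without C, Zscan4c, Zscan4d and Zscan4f rose in KO EBs by 3.63, 4.54 and 3.70 on the log2 scale (adjusted p = 9.39e-05, 1.26e-05 and 7.06e-05), against 21.3% of all genes called higher. The same count of 3 was called without C and filter (12.9% called higher) and by edgeR without C (18.7%), and 2 were called without KO ESC C only (3.08%). The test of the difference itself, the KO effect in EBs minus that in ESCs, gave 2.71 for Zscan4c, 3.75 for Zscan4d and 2.64 for Zscan4f over all libraries (adjusted p = 0.853, 0.715 and 1). It called none of the 4, against 0.475% of all genes, with no unadjusted p under 0.05 (1350 of 15781 genes had one) and none by edgeR or DESeq2. Without C these were 4.48, 5.78 and 4.54 (adjusted p = 3.49e-04, 4.6e-05 and 2.67e-04), against 16.3% of all genes called higher. Without C and filter 3 were called (8.09% called higher), by edgeR without C 3 (13.3%), and without KO ESC C only 2 (0.855%). These comparisons share libraries, so their values are not independent.

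Per length, as RPKM (with the reads in genes as the library total) averaged over A and B, WT ESCs ranked the genes as Zscan4d (2.33), Zscan4c (1.78), Arg2 (1.43), Tcstv1 (1.26), Zscan4f (0.951), Tcstv3 (0.757), Zscan4b (0.406), Zscan4e (0.309), Spz1 (0.215) and Zfp352 (0.187). Among neighbours in that order, the single libraries did not overlap between Zscan4c and Arg2 or between Zscan4f and Tcstv3, and overlapped or nearly touched in the other pairs (Zscan4d 1.90 and 2.76 RPKM, Zscan4c 1.90 and 1.66). In KO ESCs A and B the order was Arg2 (0.782), Zscan4c (0.0285), Zscan4d (0.0143) and 7 genes at 0. In KO EBs Zscan4d (1.66), Zscan4c (1.01) and Zscan4f (0.839) led, and in WT EBs Arg2 (1.18), Zscan4c (1.05) and Zscan4d (1.04) did. These levels treat lost shared reads as absent, so those of Zscan4b, Zscan4c, Zscan4e and Zscan4f are understated most. Those of genes with more unique stretches, such as Zscan4d (50.4% of 50-base stretches), are understated less. The rank of Zscan4d above Zscan4c (14.5%) is therefore uncertain.

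Other genes of the two-cell program showed the same split in A and B. Of 36 listed, 29 had a row, 26 had a read and 21 had 10 or more reads in all. Among those 21, KO ESCs A and B lay below WT ESCs A and B for 19 (33.9% of all genes with 10 or more reads), and 11 had no read in KO ESCs A and B (2.74%). These shares were not matched for level. KO ESC C lay above WT ESC C for 14 (37.5%), of which 7 had 3 reads or fewer in KO C, too few to compare. Duxf3, the Dux gene itself, had 2, 0 and 1 reads in KO ESCs A, B and C, against 15, 11 and 0 in WT ESCs, and 18 and 12 in KO EBs, against 25 and 12 in WT EBs. Tmem92, a membrane protein gene, had 1, 1 and 3 reads in KO ESCs, against 113, 100 and 4 in WT ESCs, and 20 and 29 in KO EBs, against 66 and 57 in WT EBs. KO lay below WT for Tmem92 in A and B of both cell types, whereas Duxf3 overlapped in EBs.

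Of the 29, limma tested 5 over all libraries and called none in KO against WT ESCs, where 2.38% of all genes were called. Their median log2 difference was -2.15, against -0.02 over all genes. Without C it called 4 lower (Tmem92, Pramef25, Gm5662 and Gm12794, by -5.53, -5.03, -4.03 and -4.16) and Pramef8 higher, by 0.95. In that fit 27.8% of all genes were called lower and 27.4% higher. The 4 lower genes passed the filter through libraries other than KO ESCs A and B, so their count describes them and tests nothing. The edgeR fit without C called 16 of 21 lower and 1 higher in KO ESCs, against 21.5% and 21.9% of all genes. In KO EBs it called 4 lower and 1 higher, against 19.7% and 20.5% of all genes, so the EB count of lower calls was near that share. Pramef8 was the one higher in each. It had 768, 909 and 711 normalized counts in KO ESCs A, B and C, against 391, 479 and 448 in WT ESCs, at levels far above the rest of the list.

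Calls among known regulators of the state are given beside the share of all genes called. Over all libraries limma called 2.38% of all genes in KO against WT ESCs and 1.84% in KO against WT EBs. Activators here were Dppa2, Dppa4, Nelfa, Tbx3 and the 3 NF-Y subunits, and limma over all libraries called 0 of 7 in KO against WT ESCs (median log2 difference -0.44) and 0 of 7 in EBs (median 0.39). Dppa4, which with Dppa2 is known to act upstream of Dux, had 351, 383 and 1433 normalized counts in KO ESCs A, B and C, against 466, 449 and 1476 in WT ESCs, high in C of both genotypes. Tbx3, the most abundant of the 7, had a log2 difference of -0.47 (adjusted p = 0.87). Without C, 5 of 7 fell in KO ESCs, where 27.8% of all genes fell, and Tbx3 rose, by 0.36.

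Of 22 repressors, limma over all libraries called 1 in KO against WT ESCs and none in EBs. Counts this small, beside 2.38% and 1.84% of all genes called, do not set the list apart. Trim28, a co-repressor of repeat elements, fell in KO ESCs (log2 difference -0.85, SE 0.16, adjusted p = 0.0461). It had 13352, 12088 and 13387 normalized counts in KO ESCs A, B and C, against 22644, 20314 and 27248 in WT ESCs, with no overlap. Ncl, the nucleolar protein nucleolin, did not pass (0.27, adjusted p = 0.991). Lin28a, an RNA-binding protein known to repress Dux with nucleolin, had 16.9, 12.7 and 2508 normalized counts in KO ESCs, against 307, 303 and 3847 in WT ESCs. It did not pass over all libraries (-3.06, adjusted p = 0.525) and fell without C (-4.29, adjusted p = 3.47e-07). Without C, 7 of the 22 fell and 4 rose, shares not far from those of all genes in that fit (27.8% lower and 27.4% higher). In WT EBs against WT ESCs Uhrf1 (-1.66, adjusted p = 0.0172) and Chaf1b (-0.81, adjusted p = 0.0453) fell, and in KO EBs against KO ESCs Uhrf1 did (-1.54, adjusted p = 0.0444). Of all genes, 2.48% and 0.805% were called in these comparisons.

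Of 13 telomere genes limma called none in KO against WT ESCs or EBs over all libraries, with medians of -0.24 and 0.28. Of all genes, 2.38% and 1.84% were called there. Atrx, the most abundant, had a log2 difference of -0.64 (adjusted p = 0.0992) in ESCs. Without C, 3 of the 13 rose and 5 fell in KO ESCs, where 27.4% of all genes rose and 27.8% fell. Among them were Tert, the catalytic part of telomerase, which rose by 1.21, and Terf1, a telomere-binding protein, at -1.02. Of 9 tested enzymes of arginine and polyamine metabolism, Asl fell in KO ESCs over all libraries (-0.96, adjusted p = 0.0492), where 2.38% of all genes were called. Asl makes arginine, the substrate of Arg2, and had 240, 216 and 194 normalized counts in KO ESCs A, B and C, against 502, 450 and 333 in WT ESCs. Odc1, which turns ornithine into putrescine, did not pass over all libraries (-0.71, adjusted p = 0.879) and fell without C (-0.93).

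The genes whose pattern over the 10 libraries was most like the Zscan4 sum were Blnk, Cyp39a1, Brms1l, Lacc1 and Sh3gl3. Likeness was Pearson r of log2(normalized count + 1), ranked over 15777 genes. It was 0.963 for Blnk, 0.961 for Cyp39a1, 0.960 for Brms1l, 0.957 for Lacc1 and 0.949 for Sh3gl3, and 0.984, 0.976, 0.963, 0.974 and 0.989 without C. The highest of so many genes are high in part through the ranking, and all points share library and depth. Among members, Zscan4d had 0.989, Zscan4c 0.965 and Zscan4f 0.940, each being a part of the sum, and Arg2 had 0.267. Blnk had 6.53, 2.72 and 58.3 normalized counts in KO ESCs A, B and C, against 48.6, 61.8 and 49.4 in WT ESCs, and 30.4 and 28.0 in KO EBs, against 36.0 and 45.6 in WT EBs.

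Markers of other cell types moved between the libraries as well. The 12 fibroblast markers summed to 13322, 13452 and 453 normalized counts in KO ESCs A, B and C, against 8781, 8833 and 339 in WT ESCs, and to 4364 and 4307 in KO EBs, against 6126 and 5952 in WT EBs. In ESCs this sum was therefore high in A and B of both genotypes and low in C. Thy1 alone of the 12 went the other way, with 29.4, 30.9 and 97.2 in KO ESCs A, B and C, against 57.2, 55.7 and 92.2 in WT ESCs. The 12 pluripotency markers were detected in every group. They summed to 57239, 51049 and 54403 in KO ESCs A, B and C, against 46856, 43628 and 115356 in WT ESCs. KO thus lay above WT in A and B and below WT in C. Limma over all libraries called none of either list in KO against WT ESCs, where it called 2.38% of all genes. In EBs, 8 of 10 endoderm markers fell in KO (median log2 difference -6.19), among them Afp (-8.78), Cubn (-8.36), Lama1 (-7.71) and Sox17 (-6.94), with sums of 278 and 288 in KO EBs, against 45360 and 45839 in WT EBs. In that comparison 216 of 15781 genes were called lower. Of 8 spermatid and testis markers, a check for Spz1, only Odf2 was tested, and it was not called. The part of these markers in the Zscan4 values was not tested.

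**Figure D5:**
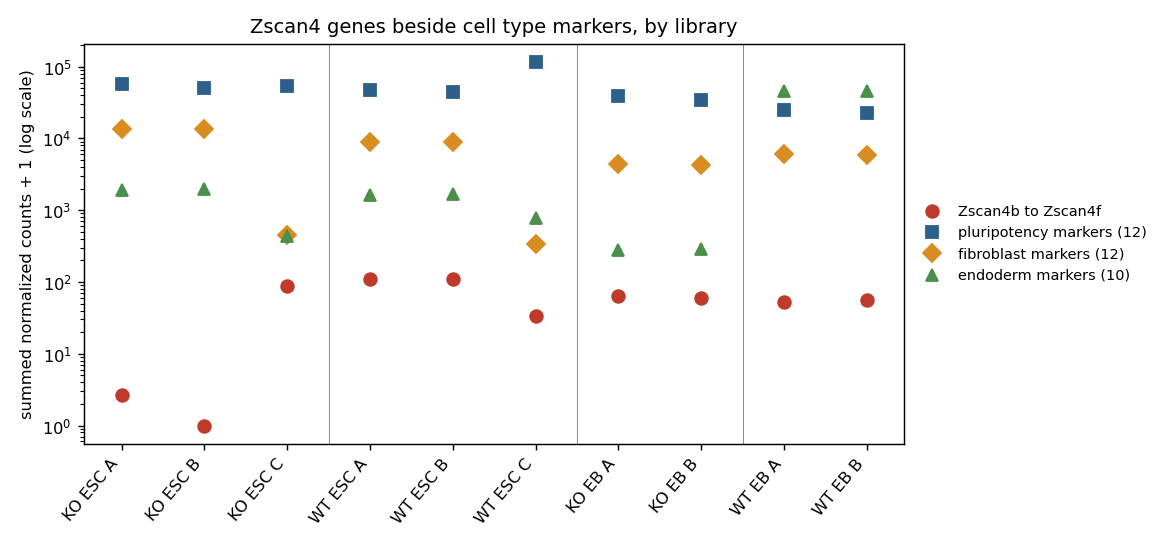
For each of the 10 libraries, in the order KO ESC, WT ESC, KO EB and WT EB, the plot gives on a log scale the summed normalized counts + 1 of the 5 Zscan4 genes (red) and of pluripotency (blue), fibroblast (orange) and endoderm (green) markers. Zscan4 lies at 1.63 and 0 in KO ESCs A and B and at 32.9 or more in the other 8 libraries, while fibroblast markers lie at 453 and 339 in the C libraries.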

How the data were processed

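Per the submitters' processing notes, RNA-seq reads were processed with CASAVA 1.8.2, Bowtie, TopHat2 2.0.10, HTSeq 0.6.0 and DESeq on mm10. The annotation release, strand setting and read length are not given in the sources used here. The deposited values are a normalized signal, counts of reads per gene over a DESeq size factor that the authors set for each library, per the file's name and its values. Whole reads were recovered by taking the lowest nonzero value of a column as 1 read, and 100% of values then came out whole within 0.01. Symbols and coordinates come from GENCODE M21 (37693 of 39179 identifiers matched), and upstream sequences from RefSeq. 5 summary lines of the counter were left out, and 1 WT fibroblast sample was not analysed here.

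The main test was limma 3.58.1 (R 4.3.3) on log2(value + 1) for genes with a mean of 10 or more, with 4 group means over all 10 libraries, trended robust variances, 6 residual degrees of freedom, two-sided tests and Benjamini-Hochberg adjustment over all genes tested per comparison at 0.05. Alternatives were TMM rescaling, pseudocounts of 0.5 and 5, no filter, a replicate block, each library left out, both C libraries left out, only the groups compared, plain variances, edgeR 4.0.16 and DESeq2 1.42.0. The script was tested on simulated data. EB groups take their spread from all groups, C included. Folds are of summed reads with exact binomial 95% intervals, and a group with no read is set at 3 reads. All members were named, and from other lists, in the comparisons described, the called genes (at most 4 per direction) and the most abundant one not called. Others are given where a sentence turns on them and were chosen after their values were seen (Duxf3, Tmem92, Dppa4, Lin28a, Tert, Terf1 and Odf2 among them). The members and lists were chosen with earlier results of these data known.

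Letters are shared by KO and WT. Deviations from the group means had r = 0.845, 0.828 and 0.858 across genes between KO and WT ESCs of the same letter (A, B, C), so by a bound of 0.1 for every pair the ESC letters pair the libraries. A with B gave 0.809 and 0.812, and C with either -0.836 to -0.846, so this rests mostly on C standing apart. EB letters had r = 0.369 with only 2 pairs.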

Additional observations from a re-analysis of the deposited data

Results flagged for a closer look

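The KO effect differed between EBs and ESCs for 3 genes, by a test of the difference itself once both ESC replicate C libraries were left out. The difference, EBs minus ESCs, in limma log2 units was 4.48 for Zscan4c, 5.78 for Zscan4d and 4.54 for Zscan4f, with adjusted p = 3.49e-04, 4.6e-05 and 2.67e-04. In that fit 16.3% of all genes were called higher, so these calls alone do not set the genes apart. Over all 10 libraries none of the 3 passed (adjusted p = 0.853, 0.715 and 1). KO ESCs A and B together held 2, 1 and 0 reads of Zscan4c, Zscan4d and Zscan4f, while KO EBs held 44, 72 and 32.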

How the results depend on the processing

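Over all libraries, limma called 0 members in every comparison, and edgeR, TMM rescaling, other pseudocounts, no filter, plain variances, only the groups compared and the replicate block called 0 as well. These zeros are not alike. In KO against WT ESCs edgeR called 377 of 15781 genes, no filter 45 of 30581 and only the groups compared 0 of 15781. With only the groups compared, 0 genes were called in KO EBs against KO ESCs too, so no member could be called in either comparison. With the replicate block, adjusted p in KO against WT ESCs was 0.124 for Zscan4c, 0.131 for Zscan4d and 0.232 for Zscan4f. The block called 4627 of 15781 genes in that comparison, against 376 in the main fit, and still called no member in any comparison. DESeq2 called 1 in KO against WT ESCs.

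Leaving out 1 library gave 0 to 3 calls in KO against WT ESCs, and 0 to 2 in KO EBs against KO ESCs and for the EB minus ESC difference. These calls came only when KO ESC C was the library left out. Leaving out WT ESC C called 1345 of 15781 genes in KO against WT ESCs and 0 members. Leaving out KO ESC A or B, WT ESC A or B, or any EB library called 0 of 15781 genes in KO against WT ESCs, so no member could be called there. Leaving out both C libraries gave 3 calls in KO against WT ESCs, 1 in WT EBs against WT ESCs, 3 in KO EBs against KO ESCs and 3 in the difference. Adding no filter to that gave 9, 1, 3 and 3, and 2 in KO against WT EBs. edgeR without C gave 10, 2, 3 and 3, and 1 in KO against WT EBs.

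Of 436 values of tested members under alternatives, 380 kept direction and side of the threshold, 40 kept direction and newly passed, and 16 reversed. With 1 library left out, Zscan4c in WT EBs against WT ESCs spanned -0.85 to 0.34 (above 0 without WT ESC A, WT ESC B or WT EB A), Arg2 in KO against WT ESCs -0.77 to 0.34 (above 0 without KO ESC A, WT ESC A or WT ESC B) and Arg2 in WT EBs against WT ESCs -0.38 to 0.73 (below 0 without WT ESC C). Zscan4f in KO EBs against KO ESCs was -0.11 with DESeq2. Arg2 in WT EBs against WT ESCs was -0.38 without both C and also without the filter, -0.038 with edgeR, -0.10 with DESeq2 and -0.44 with edgeR without C. Its difference of KO effects was 0.11 without both C, 0.11 also without the filter and 0.20 with edgeR without C. The cause of these changes was not tested. In KO against WT ESCs adjusted p spanned 4.52e-06 to 0.528 for Zscan4c, 9.27e-07 to 0.55 for Zscan4d, 1.22e-05 to 0.978 for Zscan4f and 0.0457 to 1 for Arg2.

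In C, 3 reads equal 8.33 (KO) and 9.88 (WT) normalized counts, so Zscan4b, Zscan4e, Tcstv1, Tcstv3 and Spz1 could not be compared there.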
